A study of Mus musculus with 2 samples.

Results

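The vesicle trafficking and secretion machinery moves newly made proteins from the endoplasmic reticulum (ER) through the Golgi to the cell surface, and sorts internalised cargo between endosomes, the Golgi and lysosomes. Probe sets were taken where the array annotation gave exactly 1 gene symbol starting with Vps, Snx, Stx, Vamp, Trappc or Exoc, with Sec, Cog or Rab followed by a digit, or with Cop followed by a letter. A stretch of chromosome 4 from Acer2 to Svbp was to be left out, and 0 of the matching probe sets lay in it. The rule gave 179 probe sets for 125 genes, of 10581 probe sets with 1 symbol and 12411 non-control probe sets in all. Of the 125 genes, 109 were placed in one of 7 transport steps and 14 in no step. The other 2, Cops2 and Coprs, matched by spelling only. Cops2 encodes a subunit of the COP9 signalosome, which is not transport machinery, and all 3 of their probe sets were too dim to give a ratio.

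Total RNA of the mouse mesoangioblast clones D16 and D351 was measured, on 1 array for each. Mesoangioblasts are vessel-associated progenitor cells of the embryonic aorta. Both clones came from C57BL6 embryos at E9.5, from dorsal aorta kept as an explant for 5 days and cloned by limiting dilution over mitomycin C-treated embryonic fibroblasts in RPMI with 20% fetal calf serum, and no treatment or genetic change is named for either. Each group is thus 1 clonal culture measured once, so there is no spread between replicates, no test was possible, and every difference is between 2 RNA samples. A probe set is a group of array probes for 1 transcript, and its value is an intensity on a linear scale. Signals below 16.8, the pooled median of the arrays and here called the floor, were set to that value before the log2 ratio of D351 over D16 was computed. Where 1 of the clones was below it, the ratio is a bound, written as at least or at most. A probe set under the floor on both arrays was given no ratio and is called not measured. In RNA of a whole culture, fewer expressing cells and less RNA per cell cannot be told apart.

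The arrays had summed signals of 653854 for D16 and 646285 for D351. Of 18 markers of mesoangioblasts and vessel wall, 3 genes (Flt1, Myh11 and Cspg4) were among the annotated probe sets, so the labelled cell type could hardly be checked here. Flt1 read 10.3 in D16 and 44.5 in D351, Cspg4 83.3 and 26.1, and Myh11 36.8 and 35.6 on its measured probe set. Genes listed as markers of embryonic fibroblasts, the feeder cells used in cloning, also differed between the clones. Whether their RNA came from feeder cells or from the clones themselves cannot be told here. The 8 probe sets of the 6 listed genes found summed to 1067.5 in D16 and 2574.1 in D351, with 6 at least 2-fold higher in D351, 1 at least 2-fold higher in D16 and 0 at a value of 0. Sfrp1 alone read 48.2 in D16 and 900.3 in D351, and the call towards D16 was Tcf4 (544.8 and 205.6). The part of these markers in the results on the trafficking genes was not tested. Syt1 and Snap25, which mark regulated secretion in neurons and endocrine cells, were under the floor on both arrays, with signals of at most 9.3.

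Most measured trafficking probe sets lay within 2-fold between the clones. Of the 179 probe sets, 104 reached the floor on both arrays, 19 on 1 array and 56 on neither, which left 123 measured probe sets for 94 genes. Their median log2 ratio was 0.098, against 0 over all 6920 measured probe sets, and 75 lay above 0 and 48 below. The middle of the distribution ran from -0.23 (lower quartile) to 0.45 (upper quartile) for the trafficking probe sets and from -0.43 to 0.44 for all. In 83 of the 123 probe sets the ratio was within 0.5 log2 units of 0 (67.5%, against 55.3% of all measured probe sets).

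At least 2-fold differences were found in 11 probe sets, 9 higher in D351 and 2 higher in D16. This is 7.32% and 1.63% of the measured trafficking probe sets, against a background of 9.23% and 7.99% of all measured probe sets. Where both clones reached the floor, the counts were 7 and 2 of 104, against 7.86% and 7.88% of all. The split between directions depended on the floor. With the floor lowered to the 25th percentile of the signals (4.6), 18 trafficking probe sets passed 2-fold towards D351 (11.25%) and 14 towards D16 (8.75%), against 12.0% and 11.1% of all. The 9 genes towards D351 were Sec24a, Trappc13, Rab30, Rab43, Rab3il1, Rab29, Snx1, Snx7 and Vps37a, and those towards D16 were Snx5 and Rab6b.

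**Figure D1:**
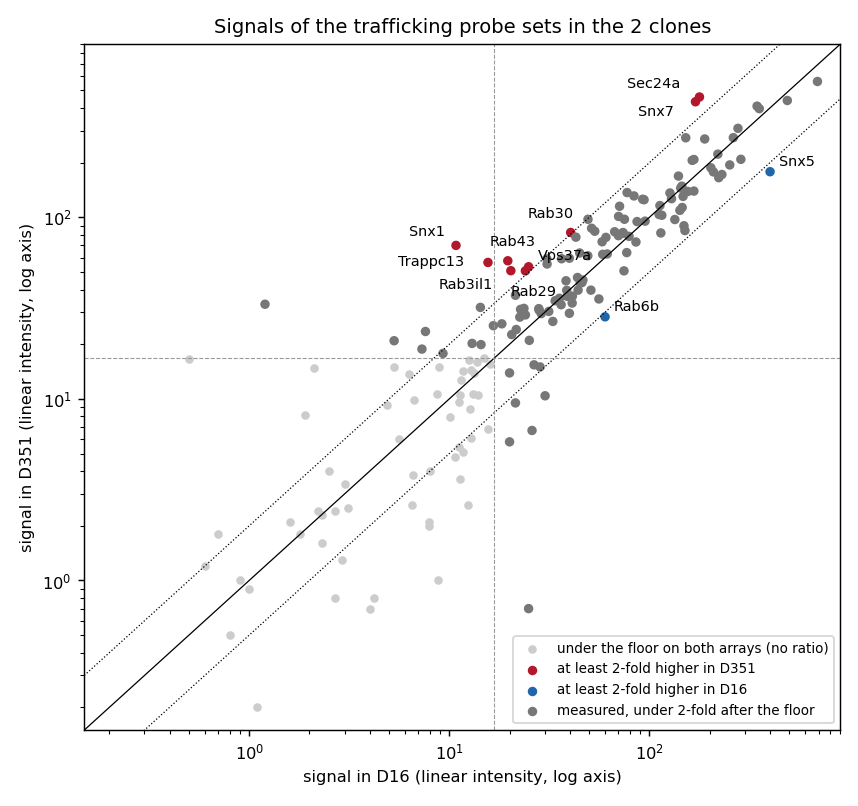
Signal of each of the 179 trafficking probe sets in D16 (x axis) and D351 (y axis), as linear intensities on log axes, with 1 point per probe set. The solid line marks equal signals, the dotted lines 2-fold differences and the dashed lines the floor of 16.8. Most measured points lie close to the line of equal signals, with 9 red points (higher in D351) and 2 blue points (higher in D16) past 2-fold.

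The only internal check on a ratio is another probe set for the same gene on the same arrays. In the 1113 genes of the array that allow this, the brightest pair of probe sets gave ratios that differed with an SD of 0.71 log2 units, or 0.50 per probe set. For the 24 trafficking genes with such a pair the SD was 0.65. This covers probe design only, not the array or the culture. All probe sets lay above 0 in 12 of the 24 genes, all below 0 in 3 and on both sides in 9. When each gene was counted by its brightest probe set, 6 of 94 genes passed 2-fold towards D351 (6.38%, against 9.49% of all 4922 measured genes) and 1 towards D16 (1.06%, against 8.57%). The difference between both ways of counting lies in Trappc13, Snx1, Vps37a and Rab6b, whose brighter probe set did not reach 2-fold.

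The transport steps had median log2 ratios between 0.030 and 0.53. The higher values belonged to the steps with fewest probe sets, ER translocation (3 measured, median 0.53) and ER exit (4 measured, 0.23). ER to Golgi transport (31 measured) had a median of 0.098, exocytosis (19) 0.14, early endosomes and recycling (13) 0.030, retromer with sorting nexins and endosome to Golgi transport (30) 0.037, and late endosomes with ESCRT and lysosome genes (15) 0.064. For a median over that many probe sets, the spread expected from probe design alone was 0.36 for ER translocation, 0.31 for ER exit and 0.11 to 0.17 for the other 5 steps. Of the 7 medians, only that of ER translocation lay further from 0 than this spread, and it rests on 2 genes. With each chromosome's median taken off it was 0.18, inside the spread. With the floor lowered to 4.6 it was 0.35 over 4 probe sets, for which the expected spread is 0.31. The ER translocation median is thus no firm difference. Counted by gene, the median of ER to Golgi transport was -0.094, so its direction is not settled.

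**Figure D2:**
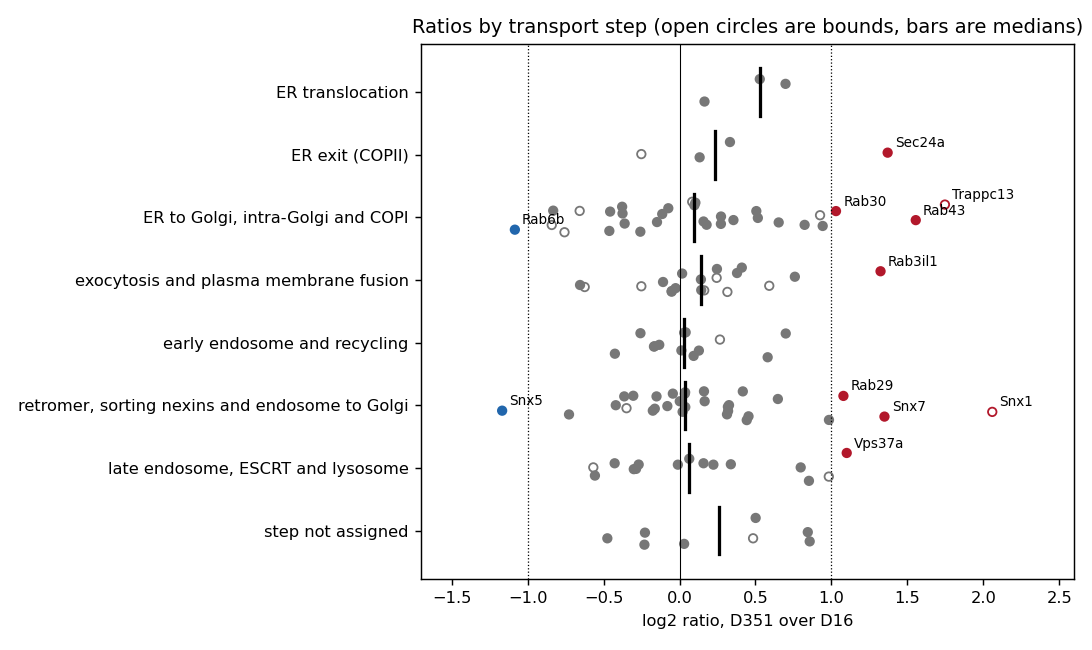
Log2 ratio of D351 over D16 for the 123 measured probe sets, grouped by transport step (y axis), with vertical jitter. Filled circles reached the floor on both arrays, open circles are bounds, black bars are medians, and the dotted lines mark 2-fold. The step medians lie between 0.030 and 0.53, and named points are those past 2-fold.

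Secreted and membrane proteins enter the ER through the Sec61 channel, with Sec62 and Sec63 as its partners. Sec63, which recruits the chaperone BiP to the channel, read 70.9 in D16 and 115 in D351 on one probe set and 70.1 and 101.1 on another (log2 0.70 and 0.53). Both probe sets placed Sec63 higher in D351 by less than 2-fold, and it lies on chromosome 10, whose measured genes had a median of 0.35. Sec62 read 353.8 and 396.5 (log2 0.16) on a probe set with the ending _r, a design made under relaxed rules.

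COPII vesicles leave the ER with cargo picked by Sec24 proteins. Sec24a, one of the cargo-binding coat subunits, read 177.8 in D16 and 459.6 in D351, a 2.58-fold difference (log2 1.37) on 1 probe set. Its paralogs had smaller ratios. Sec24d read 163.5 and 205.8 (log2 0.33), and Sec24b was near the floor with 20.0 and 13.9 (log2 at most -0.25). Sec23ip, a phospholipase-like protein that binds the Sec23 coat subunit, read 28.1 and 30.8. The 4 genes of this step thus ranged from -0.25 to 1.37. Sec24a was the 1 of 4 measured probe sets past 2-fold (25% towards D351 and 0 towards D16). The shares of all measured probe sets were 9.23% and 7.99%, and 4 probe sets are too few to compare with them.

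Between the ER and the Golgi, vesicles are captured by tethers (the TRAPP and COG complexes) and fused by SNARE proteins, with Rab GTPases as switches that mark each membrane. Among the Golgi Rab proteins, Rab43 read 19.6 in D16 and 57.6 in D351 (2.94-fold), with the D16 value just over the floor. Rab30 read 40.4 and 82.5 (2.04-fold) on one probe set and 14.3 and 31.9 (at least 1.90-fold) on another. Both Rab30 probe sets therefore lay in the same direction, on either side of 2-fold.

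Rab6b went the other way. It is a Rab6 isoform of Golgi transport known chiefly from neurons, and read 150.4 in D16 and 84.5 in D351 on its brighter probe set (log2 -0.83) and 60.0 and 28.3 on the other (2.12-fold lower in D351, log2 -1.08). The 2 probe sets agreed in direction, and its chromosome, 9, had a gene median of 0.17. Rab2b, which acts in ER to Golgi transport, read 53.3 and 83.8 (log2 0.65). Of all 27 Rab GTPase genes, 18 were measured, with a median log2 ratio of 0.093 over 25 probe sets. Past 2-fold were 3 of them towards D351 (12%) and 1 towards D16 (4%), beside 9.23% and 7.99% of all measured probe sets.

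The tethers had medians on either side of 0, a difference that was not tested. TRAPP subunits (9 measured probe sets, 7 genes) had a median of 0.27. COG subunits (6 probe sets, 6 genes) had one of -0.17 (-0.074 over the 5 at the floor on both arrays). Of the COG probe sets 0 were shown to pass 2-fold, beside 9.23% and 7.99% of all measured probe sets towards D351 and D16. Trappc13 gave 3 different answers. Its brightest probe set read 133.9 in D16 and 97.2 in D351 (log2 -0.46), another read 15.6 and 56.4 (at least 3.36-fold higher in D351), and an _f probe set, of a design shared with related transcripts, read 9.3 and 17.8. The Trappc13 call thus rests on 1 of 3 probe sets and is contradicted by the brightest one.

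Other TRAPP subunits lay on both sides of 0. Trappc6b read 77.3 and 136.8 (log2 0.82), Trappc8 286.2 and 208.5 (log2 -0.46), and Trappc6a 251.9 and 194.2 (log2 -0.38). Trappc9, Trappc11 and Trappc3 (an _f probe set) had log2 ratios of 0.27, 0.35 and 0.51. In the COG complex, which tethers vesicles that recycle Golgi enzymes, Cog4 read 166.7 and 139.4 (log2 -0.26) and Cog6 126.6 and 136.1 (log2 0.10), while Cog2, Cog3, Cog5 and Cog8 ranged from at most -0.66 (Cog5) to 0.18 (Cog8).

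Sec22b, a SNARE of ER and Golgi membranes, was above 0 on both probe sets, with 188.8 in D16 and 269.9 in D351 (log2 0.52) and 30.7 and 59.0 (log2 0.94). Its relatives Sec22a (44.0 and 39.7) and Sec22c (28.4 and 15, log2 at most -0.76) lay below 0. The coatomer subunit Copg2, of the COPI coat that returns proteins to the ER, read 141.9 and 109.2 (log2 -0.38). Rab3gap1 and Rab3gap2, which form a regulator of Rab3 and Rab18, had values near equal, with Rab3gap1 at 202.7 and 187.3.

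The exocyst is an octameric tether that brings secretory vesicles to the plasma membrane. All 7 of its genes that matched were measured, on 10 probe sets with a median log2 ratio of 0.14. Of these 0 were shown to pass 2-fold, beside 9.23% and 7.99% of all measured probe sets towards D351 and D16. Exoc4 read 344.9 in D16 and 409.1 in D351 (log2 0.25) on its brighter probe set and 51.4 and 87.0 (log2 0.76) on the other. Exoc5 read 143.2 and 144.9, and Exoc2 128.9 and 126.6. Exoc1 read 55.9 and 35.5 (log2 -0.66), and Exoc6 20.0 and 5.8, a bound of at most -0.25. Where both clones reached the floor, ratios ran from -0.66 to 0.76, on either side of 0.

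Of the 19 measured probe sets of exocytosis genes, 1 passed 2-fold towards D351 (5.26%) and 0 towards D16. The shares of all measured probe sets were 9.23% and 7.99%. That 1 was Rab3il1, an exchange factor that activates Rab8, with 20.3 in D16 and 50.8 in D351 (2.50-fold). The D16 signal lay near the floor, and no second probe set was present. Its relative Rab3ip, also a Rab8 activator, was not measured (0.7 and 1.8). Rab27b, a Rab of secretory granules and exosomes, read 111.7 and 103.6. Of 17 dim probe sets in this step, that of Rab27a read 0.5 in D16 and 16.5 in D351, just under the floor. The SNARE genes of the plasma membrane were at or below the floor in large part, with Stx3 at 45.1 and 43.5, Vamp1 at 5.3 and 20.9, and Vamp3 and Vamp5 not measured.

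After uptake, cargo passes early endosomes, from which Rab4, Rab11, Rab14 and Rab35 proteins return it to the surface. None of the 13 measured probe sets of this step reached 2-fold, beside 9.23% and 7.99% of all measured probe sets towards D351 and D16. The ratios ran from -0.43 to 0.70. Rab22a, of early and recycling endosomes, was measured by 4 probe sets, with 221.9 in D16 and 165.2 in D351 on the brightest (log2 -0.43) and 145.2 and 148.3, 86.7 and 94.7, and 43.7 and 46.6 on the others (log2 0.030 to 0.13). Rab35 read 155.5 and 138.7, and 115.3 and 102.6 on an _s probe set, with almost the same ratio on both (log2 -0.16 and -0.17). The upper end was Rab34, a Rab of Golgi and ciliary membranes, with 36.4 and 59.1, and the Rab11 effector Rab11fip2 with 39.8 and 59.5 (log2 0.58).

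Sorting nexins are membrane-binding adaptors, and those with a BAR domain bend endosomal membranes into tubules that carry cargo back to the Golgi or the surface. Snx1 and Snx5 are of this kind and can pair with each other, and Snx7 is also a BAR-domain member, related to Snx30. Of 17 sorting nexin genes, 15 were measured on 22 probe sets, with a median log2 ratio of 0.036. Past 2-fold were 2 of the 22 towards D351 (9.09%) and 1 towards D16 (4.55%). Neither share exceeds that of all measured probe sets, 9.23% and 7.99%. The BAR-domain members went both ways. The RefSeq promoters (250 bases before to 50 after the annotated start) of the 3 sorting nexins past 2-fold are shown because Snx1 and Snx5 can pair and differed in direction. They are from build GRCm38.p6, Snx1 at chr9:66124837-66125136, Snx5 at chr2:144270523-144270822 and Snx7 at chr3:117868887-117869186, all on the minus strand, and capitals mark any match, on either strand, to the E-box CACGTG, to the ER stress motif TGACGTG or to the CCAAT box.
Snx1: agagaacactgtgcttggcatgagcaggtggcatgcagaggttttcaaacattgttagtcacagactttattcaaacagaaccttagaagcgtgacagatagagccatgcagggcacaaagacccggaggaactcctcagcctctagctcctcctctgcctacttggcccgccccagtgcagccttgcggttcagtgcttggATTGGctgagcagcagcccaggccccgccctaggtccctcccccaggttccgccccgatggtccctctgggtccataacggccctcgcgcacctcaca
Snx5: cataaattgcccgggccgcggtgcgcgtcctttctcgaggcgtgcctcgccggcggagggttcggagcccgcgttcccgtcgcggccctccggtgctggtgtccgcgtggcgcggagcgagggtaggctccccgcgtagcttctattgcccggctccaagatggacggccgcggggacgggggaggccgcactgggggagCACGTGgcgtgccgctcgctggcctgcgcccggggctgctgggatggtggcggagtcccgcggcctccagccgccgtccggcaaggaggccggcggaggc
Snx7: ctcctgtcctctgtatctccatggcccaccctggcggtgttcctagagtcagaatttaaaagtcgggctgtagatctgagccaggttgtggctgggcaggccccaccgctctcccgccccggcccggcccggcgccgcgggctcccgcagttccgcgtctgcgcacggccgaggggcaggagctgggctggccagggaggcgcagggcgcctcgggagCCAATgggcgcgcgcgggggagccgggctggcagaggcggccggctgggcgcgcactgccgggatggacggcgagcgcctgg

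Snx5 read 400.4 in D16 and 178.2 in D351, 2.25-fold lower in D351 (log2 -1.17). Snx1 read 10.8 and 70.0 on its dimmer probe set, at least 4.17-fold higher in D351, and 49.3 and 97.5 (1.98-fold) on a brighter _s probe set that is shared with related transcripts. Snx7 read 169.8 and 432.6, 2.55-fold higher in D351. Its relative Snx30 lay on the other side of 0, with 690.9 and 559.4 (log2 -0.30) and 230.1 and 172.0 on an _i probe set (log2 -0.42), and is on chromosome 4, whose measured genes had a median of -0.34. The Snx1 probe sets agreed in direction, whereas Snx5 and Snx7 rest on 1 probe set each.

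The other sorting nexins varied less. Snx18, a BAR-domain protein of endocytosis, read 488.4 and 439.7 (log2 -0.15) and 38.6 and 39.6. Snx27, a retromer adaptor that recycles receptors, read 148.7 and 89.8 (log2 -0.73) on its brighter probe set and 95.1 and 95.2 on the other, so its direction depends on the probe set. Snx19 lay above 0 on both probe sets (log2 0.65 and 0.33). Snx8, Snx9, Snx11, Snx13, Snx16, Snx21, Snx24 and Snx25 had log2 ratios from -0.18 (Snx24) to 0.45 (Snx16).

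**Figure D3:**
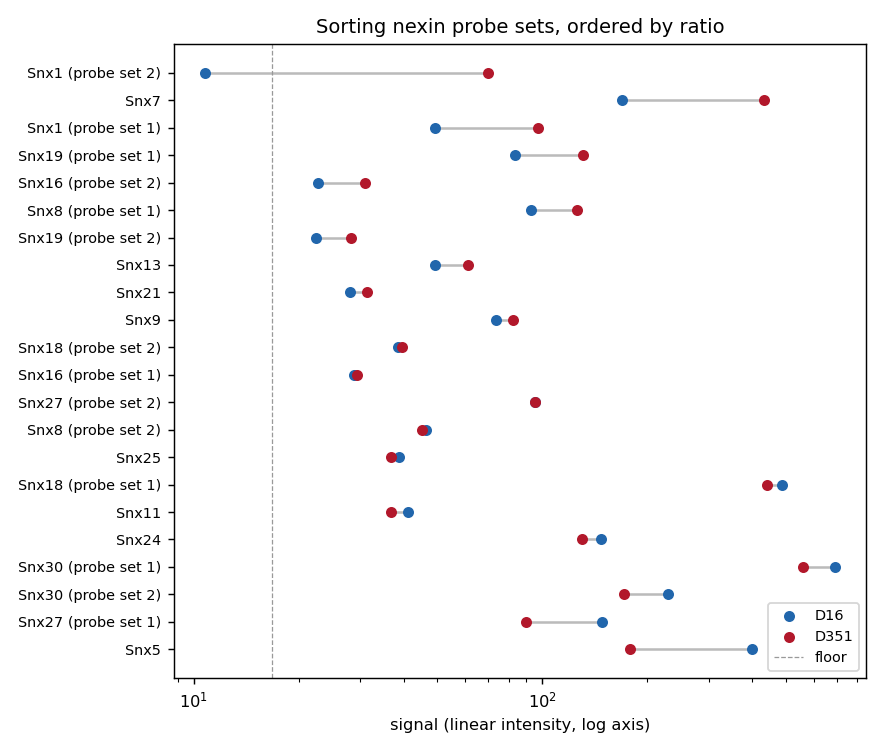
Signal of the 22 measured sorting nexin probe sets in D16 (blue) and D351 (red), as linear intensities on a log axis, ordered by ratio, with probe sets of a gene numbered by mean signal. The dashed line is the floor of 16.8. Snx1 and Snx7 are at the top (higher in D351) and Snx5 at the bottom (400.4 in D16 and 178.2 in D351).

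Of retromer and the tethers of endosome to Golgi transport, no probe set was shown to pass 2-fold. Over all measured probe sets the shares were 9.23% towards D351 and 7.99% towards D16. Vps35l, a subunit of a retromer-like recycling complex, read 145.7 in D16 and 113.2 in D351 (log2 -0.36), and the retromer subunit Vps26b 21.4 and 9.5 (log2 at most -0.35). Vps50, Vps51 and Vps53, subunits of the GARP and EARP tethers, had log2 ratios of 0.32, 0.038 and 0.42. The SNARE Stx16, which fuses endosome-derived vesicles with the trans-Golgi network, read 219.6 and 222.7. Rab29, a Rab of the trans-Golgi network that recruits the kinase LRRK2, passed 2-fold, with 24.0 and 50.7 (2.11-fold higher in D351, log2 1.08). Taking off the median of its chromosome, 1, left a log2 ratio of 0.98, just under 2-fold.

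On the way to lysosomes, ESCRT complexes sort ubiquitinated cargo into vesicles inside the late endosome, and the HOPS complex tethers endosomes to lysosomes. Vps37a, a subunit of ESCRT-I, read 24.9 in D16 and 53.4 in D351 (2.14-fold) on its dimmer probe set and 58.0 and 73.3 (log2 0.34) on the other. Vps36, of ESCRT-II, read 276.8 and 308.8 (log2 0.16) and 41.1 and 33.7 (log2 -0.29). Vps41 of HOPS read 1.2 and 33.2, at least 1.98-fold higher in D351, and so just missed 2-fold at the floor. Its partners did not share this pattern. Vps11 read 77.0 and 63.9, Vps33a 74.6 and 50.7 (log2 -0.56) and Vps39 79.1 and 78.5.

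Of the 15 measured probe sets of late endosomes, ESCRT and lysosomes, 1 (Vps37a) passed 2-fold towards D351 (6.67%) and 0 towards D16. The shares of all measured probe sets were 9.23% and 7.99%. None of the few from Rab and SNARE genes was shown to pass 2-fold. Stx7 has only a bound (24.9 in D16 and 0.7 in D351, log2 at most -0.57, an _r probe set). Rab32, a Rab of mitochondria and lysosome-related organelles, read 262.5 and 274.4, and Rab7b 21.4 and 37.2 (log2 0.80). Vamp7, a SNARE that fuses lysosomes with other membranes, read 151.8 and 274.0 (log2 0.85) on an _i probe set and lies on the X chromosome, whose measured genes had a median of 0.39. Stx17, of autophagosome fusion, was measured by 3 probe sets with log2 ratios from -0.43 to 0.22. Over 14 measured probe sets of the SNARE genes that matched the symbol rule the median was -0.016. Over the 10 at the floor on both arrays it was 0.12, so its direction is not settled. Of the 14, 0 were shown to pass 2-fold, beside 9.23% and 7.99% of all measured probe sets towards D351 and D16.

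**Figure D4:**
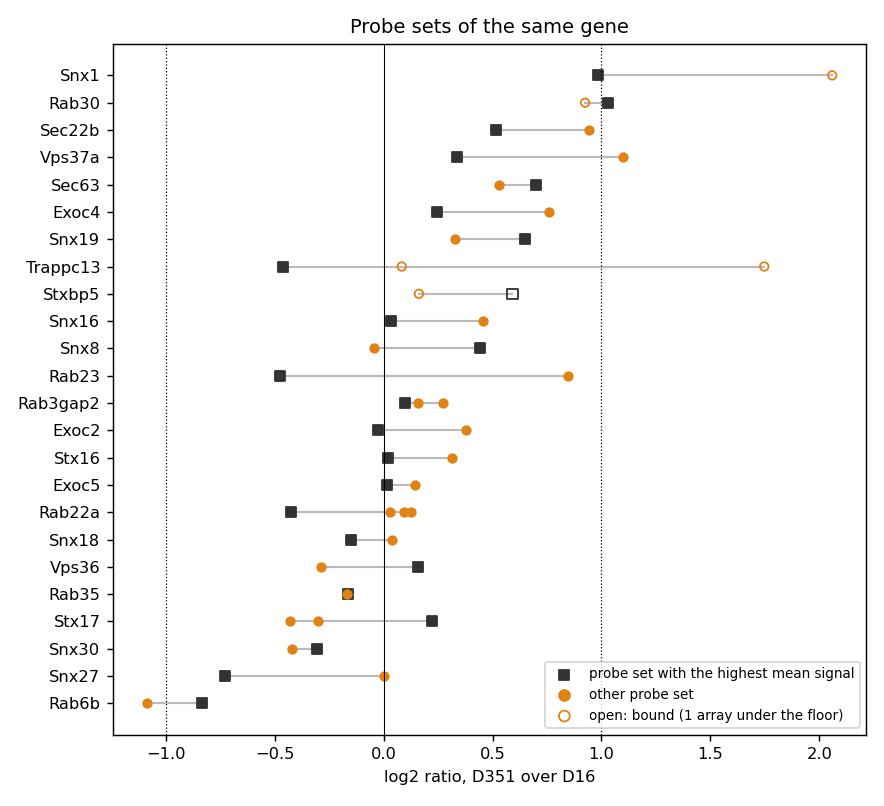
Log2 ratio of D351 over D16 for each measured probe set of the 24 trafficking genes with at least 2 of them (y axis). Squares mark the probe set with the highest mean signal, circles the others, open symbols are bounds and dotted lines mark 2-fold. Snx1, Rab30 and Rab6b keep their side of 0, whereas the probe sets of Trappc13 range from -0.46 to 1.75.

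Trafficking genes outside the symbol rule were taken from a list of 166 coat, adaptor, tether, receptor and fusion genes, of which 82 were annotated on the array and 62 measured. Their 77 probe sets had a median log2 ratio of 0.23, with 9 past 2-fold towards D351 (11.7%) and 5 towards D16 (6.49%), beside the background of 9.23% and 7.99%. Towards D351, the small subunit Ap1s2 of the AP-1 adaptor read 45.2 in D16 and 192.8 in D351 (4.27-fold), and Ap3m2, of the AP-3 adaptor, 23.4 and 84.2 (3.60-fold). The KDEL receptor Kdelr3, which returns ER proteins from the Golgi, read 48.8 and 157.2 (3.22-fold, an _i probe set). The motor Myo5a (2.24-fold), the golgin Golga3 (2.22-fold) and the signal recognition particle receptor Srpr (2.23-fold, an _f probe set) were also higher in D351. Tmf1 was 2.19-fold higher (19.4 and 42.4, an _i probe set). Ehd2 (3.69-fold) and Arcn1 (2.37-fold) passed 2-fold on a dimmer probe set only. Their brighter probe sets gave 1.06-fold for Ehd2 and 1.66-fold for Arcn1. Towards D16, the cargo receptor Tmed5 read 949.9 and 461.4 (2.06-fold) and the endosomal ATPase Ehd4 101.2 and 47.4 (2.14-fold), with 66.9 and 49.4 on another probe set (log2 -0.44). The other calls towards D16 were the Rab GTPase-activating protein Tbc1d4 (49.1 and 17.8, 2.76-fold), the COPII-associated Tfg and the SNARE-recycling factor Napg. Tfg read 42.3 and 8.5 (at least 2.52-fold) on an _r probe set. Its brighter plain probe set read 53.5 and 51.4 (log2 -0.058) and does not share the call. Napg read 94.7 and 41.1 (2.30-fold), with log2 -0.23 on its brighter probe set.

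Promoters were found for 99 of the 125 genes, as 126 sequences of 300 bases. CACGTG, the E-box at the core of the CLEAR element of lysosomal genes, stood in 18 of the 126 sequences (14.3%) against 7.15% of all 32851 promoters. Sequences of the same gene can overlap and share a match. Counted by gene, it stood in 14 of the 99 genes (14.1%), against 8.09% of all 27025 genes with a promoter. Only Vps33a among these 14 genes was placed in the step of late endosomes with ESCRT and lysosome genes. The match is thus not one of lysosomal genes here. Of the 14 genes 12 were measured, with a median log2 ratio of -0.027 and 6 above 0, against 0.084 for the 64 measured genes without CACGTG. In Snx5 it was present once, and in Snx1 and Snx7 it was absent from the window. Rab3il1, which was higher in D351, has windows at several annotated starts. The same 2 matches stood in overlapping windows of neighbouring starts, and its other windows had none. TGACGTG, bound by ATF6-type and CREB-type factors of ER stress, was in 1.59% of the trafficking promoters and 2.01% of all, and CCAAT in 36.5% and 37.4%. CCAAT stood once each in the Snx1 and Snx7 sequences. Both strands were searched, the first 2 motifs overlap in the letters ACGTG, and a match describes letters and is not a binding site.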

How the data were processed

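Total RNA of 2 clones was measured on Affymetrix MG-U74B arrays, 1 per clone. The authors deposited linear intensities, 1 value for each probe set in each clone, with 0 of them negative. Their software, background correction and presence calls are not given in the sources used here. The trimmed means of the columns (2% cut at either end) were both 40.0, which looks like scaling to a fixed target, and a shift common to every transcript would then be hidden. The values were not scaled again.

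Of 12477 probe sets 66 were controls and were left out. Gene names came from the platform annotation in GEO, and all 179 trafficking probe sets matched the RefSeq table of assembly GRCm38.p6 by identifier under the same symbol. Chromosomes came from that table. Of the 179 names, 153 had the plain ending _at, and 6 _f, 2 _g, 5 _i, 11 _r and 2 _s endings mark shared or relaxed designs. Values were raised to the floor (pooled 50th percentile), and a difference counted from 2-fold. Named genes were those with a probe set past 2-fold, the 2 brightest of each step and genes whose probe sets differed in passing 2-fold, and other members illustrate their group. The members, steps and lists were chosen with earlier results of these data known. Expected spread of a median was the SD per probe set times the square root of pi over 2, divided by the square root of the number of probe sets. Alternatives were other scalings, floors, size rules and counting by gene. The ratio step was tested on simulated arrays, with planted changes larger and signals brighter than in most calls here. That test checks the computation only and does not bear on the calls. Python 3.11.15, numpy 2.4.6 and pandas 2.3.3 were used.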

Additional observations from a re-analysis of the deposited data

How the results depend on the processing

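With the floor at the 25th percentile (4.6) the counts of trafficking probe sets past 2-fold towards D351 and towards D16 went from 9 and 2 to 18 and 14, and at the 75th (53.5) to 2 and 1 (2.70% and 1.35%, against 7.07% and 6.07% of all probe sets). With a size rule of 1.5-fold they were 24 and 9, against 19.4% and 19.0% of all probe sets, and with 3-fold 2 and 0, against 3.24% and 2.47%. Counted by gene, 1 gene passed 2-fold towards D16, the median of all members was 0.039 and that of ER to Golgi transport -0.094. The ER exit median was 0.85 with the floor at the 75th percentile, where 2 probe sets were left. Scaling to a common median gave 10 and 2, and quantile normalization 9 and 2. Those scalings moved the median of all probe sets by 0.012 and -0.022. Taking off each chromosome's median, added after the data were seen, gave 10 and 3. Of the 7 genes whose brightest probe set passed 2-fold, all 7 kept their direction under each setting that gave them a value, and 5 had one with the floor at the 75th percentile, of which 3 passed 2-fold. The cause of these shifts was not tested beyond the construction of the settings. Among those 7 genes no setting gave the opposite sign, but these settings could hardly have given one. A floor common to both arrays cannot reverse a ratio, and the scalings shifted ratios little. Of the 7 genes, only Rab30 had more than 1 measured probe set, so the choice of probe set could change little. The kept direction is therefore no check on these calls. Trappc13, Snx1, Vps37a and Rab6b were followed by their brightest probe sets, which are under 2-fold, and for Trappc13 that probe set (-0.46) and the median over its probe sets (0.083) do not keep the call of its dimmer one. No paired analysis was possible because each clone had 1 array, and for the same reason no replicate could be left out. Arrays without replicates limit every ratio, and values near the floor give bounds only.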

Other observations

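Members placed in no transport step were measured on 8 of 21 probe sets. Of these 0 passed 2-fold, beside 9.23% and 7.99% of all measured probe sets towards D351 and D16. Rab23, a Rab that restrains Hedgehog signalling, gave opposite answers, with 114.0 in D16 and 82.0 in D351 on its brighter probe set (log2 -0.48) and 30.8 and 55.3 on the other (log2 0.84). Vps13b and Vps13d, bridge-like lipid transfer proteins, read 42.9 and 77.7 (log2 0.86) and 18.3 and 25.9 (log2 0.50), and Vps13a and Vps13c were under the floor on both arrays. Rab40c read 208.7 and 177.8, Vps9d1 85.6 and 73.1, and Sec14l2, a lipid-binding protein, 61.5 and 62.8.

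In all 31 member genes had no measured probe set, 22 of them in a transport step. Their highest signal was 16.7, of Rab8b in D351. A signal under the floor does not show that a transcript was missing. Stx7, a late endosomal SNARE, had signals of 24.9 in D16 and 0.7 in D351 (an _r probe set), a ratio bounded at -0.57 by the floor.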
